A study of Caenorhabditis elegans with 12 samples.

Results

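The genes described here are the spermatogenesis genes of *Caenorhabditis elegans* that carry the names spe, ssp, ssq or nspd, leaving aside the msp genes for the major sperm proteins. They were chosen by gene name alone, and 53 of the 46904 genes in the table have such a name, namely 25 spe, 12 ssp, 4 ssq and 12 nspd genes. All 53 were found in the Ensembl annotation of the WBcel235 assembly, where 51 are protein-coding, while *nspd-11* and *nspd-12* are pseudogenes.

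In the hermaphrodite, germ cells first become sperm during the last larval stage and the germ line then switches to making oocytes for the rest of adult life. The spe genes are known from mutants whose sperm fail to form, to become motile or to fertilize. During sperm formation, the major sperm protein is packed into fibrous bodies attached to membranous organelles, and transcription stops as spermatids form. The spermatids are later activated into crawling spermatozoa, in the hermaphrodite through the *spe-8* group of genes, and other spe proteins act on the sperm surface when sperm meets oocyte. The ssp genes encode small proteins with a domain like that of the major sperm protein (sperm-specific family, class P), ssq stands for the class Q of the same naming, and nspd for group D of the nematode-specific peptides.

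RNA of whole worms was sequenced in 12 libraries, 3 in each of 4 groups. N2 is the wild-type Bristol strain. Its worms were fed *E. coli* HT115 bacteria carrying the empty vector (N2 EV) or bacteria making double-stranded RNA against *rpia-1*, the gene of ribose-5-phosphate isomerase, from the start of adulthood (N2 *rpia-1* (RNAi) Day 0), and the labels give day 5 of adulthood for both. TU3401 carries the transgene uIs69, in which the *unc-119* promoter drives *sid-1* in neurons and myo-2p::mCherry serves as a marker. The paper describes TU3401 as a neuron-hypersensitive knockdown line, and uptake of the double-stranded RNA was not measured here. Its worms were fed the empty vector (TU3401 EV) or *rpia-1* bacteria from the embryo on (TU3401 *rpia-1* (RNAi) WL), and the labels give day 0 of adulthood and an L4 mark for both. The methods of the study, in contrast, describe collection at the day-5-adult stage of worm pools, with no difference between strains. Strain, labelled age and the onset of feeding therefore differ together between the N2 and the TU3401 groups, and their parts in any difference between the strains cannot be told apart.

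The level of *rpia-1* was 27.5, 32.8 and 30.2 TPM (transcript abundance scaled to the library total, as the authors label it) in the 3 N2 knockdown libraries against 128, 115 and 120.4 TPM in N2 EV. In TU3401 it was 82.0, 88.5 and 106 TPM with knockdown and 107, 107 and 115 TPM with the empty vector. N2 *rpia-1* (RNAi) replicate 1 stood apart from the other N2 libraries, with 22388 genes above 0 against 17777 to 19135. The 4 larval molting genes looked at summed to 131 TPM in it and to 17.8 to 56.0 TPM in the other N2 libraries. Markers of several body tissues were lower in N2 than in TU3401. Here 3 body wall muscle genes (*myo-3*, *unc-54* and *unc-15*) summed to 18.6 to 24.8 TPM against 1046 to 1536 TPM in TU3401. Likewise, 3 intestinal genes summed to 13.9 to 21.7 TPM in N2 and 248 to 391 TPM in TU3401, and 3 adult cuticle collagens to 6.19 to 16.2 and 485 to 1170 TPM. Most of the intestinal sum was *ifb-2*, while *ges-1* averaged 11.4 TPM in N2 EV and 17.05 TPM in TU3401 EV. The 3 neuronal genes went the other way in sum, at 391 to 466 TPM in N2 and 232 to 270.5 TPM in TU3401, where *snb-1* was lower and the other two were higher. The 9 oocyte and eggshell genes summed to 6574 to 7521 TPM in N2 and to 3008 to 4367 TPM in TU3401. The part of these tissue differences in the results below was not tested.

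Most of the spermatogenesis genes were higher in the TU3401 libraries than in the N2 libraries, and the nspd, ssq and ssp families carried most of their RNA in TU3401. The 25 spe genes together averaged 214 TPM in N2 EV and 259 TPM in TU3401 EV. The 53 genes together summed to 232, 220.2 and 225 TPM in N2 EV and to 2788, 2733 and 3783 TPM in TU3401 EV. Of the 51 genes above 0 in any library, 44 were higher in every TU3401 library than in every N2 library, against 19.9% of all genes above 0 in any library. In the other direction, 3 genes (*spe-5*, *spe-39* and *spe-48*) were higher in every N2 library, against 18.1% of all genes. The ranges of the remaining 4 (*spe-29*, *spe-44*, *ssp-37* and *nspd-11*) overlapped, and *nspd-8* and *nspd-12* were listed at 0 in all 12 libraries. In RNA of whole worms, fewer sperm cells and less sperm RNA per cell cannot be told apart.

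**Figure D1:**
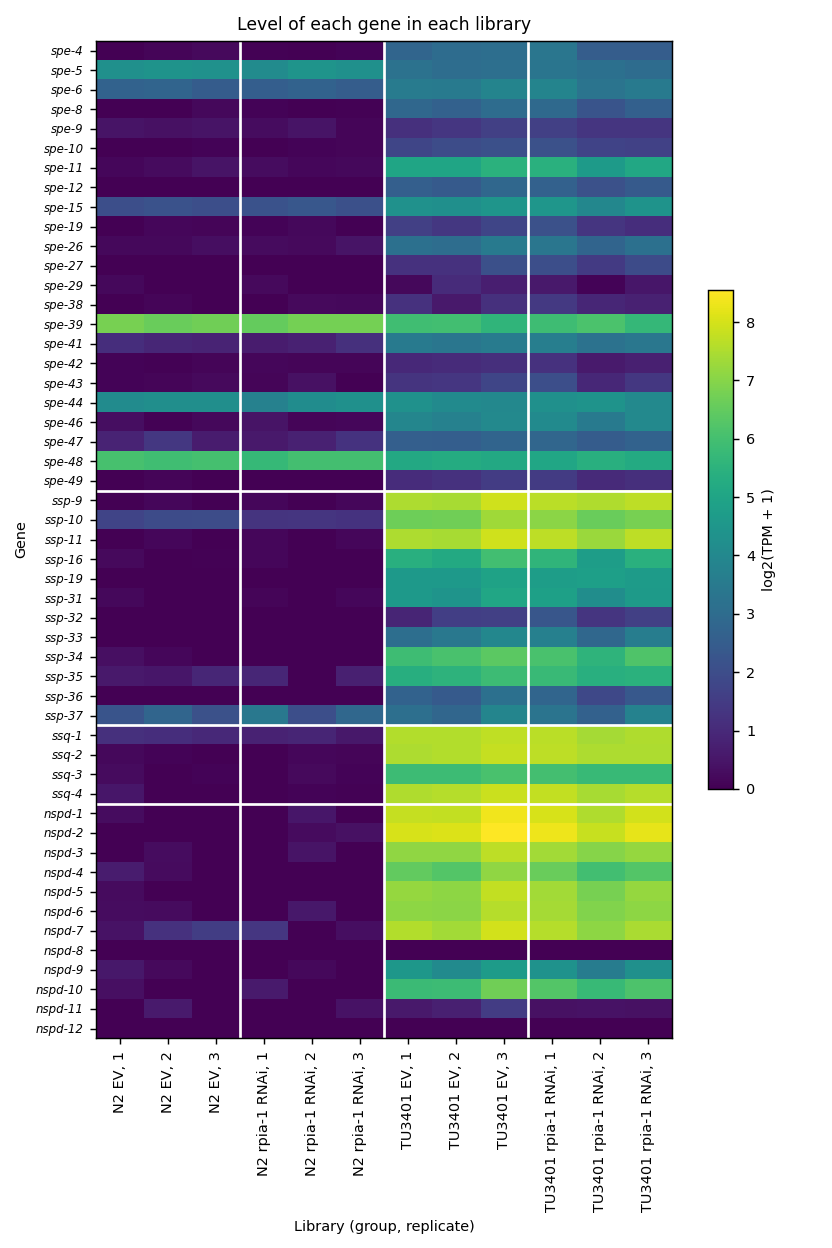
Level of 51 of the 53 genes (rows, by family from spe at the top to nspd at the bottom) in each of the 12 libraries (columns, 4 groups of 3), coloured by log2(TPM + 1). In the 6 TU3401 columns 46 of those plotted average at least 1 TPM, and in the 6 N2 columns 8 genes do, of which *spe-39*, *spe-48*, *spe-5* and *spe-44* are the brightest.

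By the mean over 6 libraries, 8 genes reached 1 TPM in N2 (*spe-5*, *spe-6*, *spe-15*, *spe-39*, *spe-44*, *spe-48*, *ssp-10* and *ssp-37*) and 47 did in TU3401. Those 8 summed to 191 to 224 TPM in N2 and to 258 to 312 TPM in TU3401. The 45 others summed to 5.71 to 8.52 TPM in N2 and to 2183 to 3471 TPM in TU3401. In N2 the summed level was thus almost wholly that of a few spe genes, and 38.99% of all values of the 53 genes in the 6 N2 libraries were 0. A level of 0 in these files can be a low estimate rather than no RNA.

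**Figure D2:**
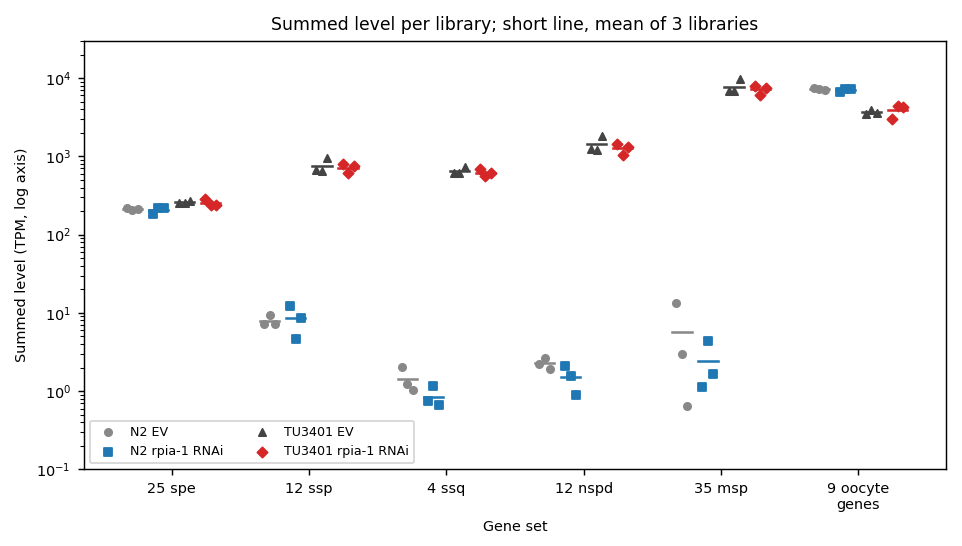
Summed level in TPM (log axis) of the 4 gene families, of the 35 msp genes and of 9 oocyte genes in each library, with 1 point per library and a short line at the mean of 3 libraries. The 25 spe genes sum to 183 to 286 TPM in every library, whereas the ssp, ssq, nspd and msp sums are under 14 TPM in N2 and at least 569 TPM in TU3401, and the oocyte genes are higher in N2.

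The regulator *spe-44*, a DNA-binding protein that switches on sperm genes in the germ line, was at about the same level in all groups. It stood at 16.4, 17.6 and 17.7 TPM in N2 EV and at 19.2, 16.2 and 14.95 TPM in TU3401 EV. The knockdown libraries held 12.7, 16.95 and 18.5 TPM in N2, and those of TU3401 held 18.6, 20.0 and 15.1 TPM. The 4 groups overlapped, and the lowest value was that of N2 *rpia-1* (RNAi) replicate 1. The log2 fold change of TU3401 EV against N2 EV was -0.04 (SE 0.11, adjusted p = 0.74, limma). After quantile normalization *spe-44* was called lower in TU3401 EV, at -0.55 (adjusted p = 0.012).

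Of the 8 genes of the fibrous body and the membranous organelle, 6 were higher and 2 lower in TU3401 EV. The vesicle trafficking gene *spe-39*, which is also used outside the germ line, was at 109, 96.2 and 102 TPM in N2 EV and at 60.04, 61.1 and 47.7 TPM in TU3401 EV. Its log2 fold change was -0.86 (SE 0.10, adjusted p = 3.5e-05). A subunit of the vacuolar proton pump, *spe-5*, was at 18.6, 20.1 and 18.995 TPM in N2 EV and at 8.30, 7.32 and 7.70 TPM in TU3401 EV, a log2 fold change of -1.21 (SE 0.10, adjusted p = 3.5e-06). Neither gene's levels overlapped between the strains.

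The other 6 went the opposite way. The myosin VI gene *spe-15* was at 3.13, 3.44 and 3.20 TPM in N2 EV and at 19.2, 17.9 and 20.9 TPM in TU3401 EV, a 5.94-fold higher mean. The kinase gene *spe-6*, needed for fibrous bodies, was at 5.51, 5.76 and 4.56 TPM against 10.8, 10.5 and 13.3 TPM, a 2.19-fold higher mean that was lost after quantile normalization (log2 fold change 0.02, adjusted p = 0.91). The kelch-repeat gene *spe-26* averaged 8.48 ± 1.51 TPM in TU3401 EV and 0.173 ± 0.066 TPM in N2 EV (SD, n = 3). The presenilin-like *spe-4* averaged 6.81 ± 0.77 and 0.087 ± 0.087 TPM, and the palmitoyltransferase gene *spe-10* averaged 2.91 ± 0.41 and 0.022 ± 0.039 TPM.

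The 8 genes of sperm activation were under 1 TPM on average in N2, and 7 of them averaged above 1 TPM in TU3401. The highest of them, the membrane protein gene *spe-46*, was at 0.252, 0.034 and 0.130 TPM in N2 EV and at 14.3, 12.4 and 15.2 TPM in TU3401 EV. The tyrosine kinase gene *spe-8* averaged 6.15 ± 0.91 TPM in TU3401 EV and its partner *spe-12*, a membrane protein, 5.18 ± 0.89 TPM (SD, n = 3). The other genes of the *spe-8* group were lower, with *spe-19* at 2.10, 1.61 and 2.48 TPM, *spe-27* at 1.31, 1.34 and 3.27 TPM and *spe-43* at 1.42, 1.52 and 2.47 TPM in TU3401 EV. In N2, *spe-12* and *spe-27* were listed at 0 in all 6 libraries, and *spe-8* did not exceed 0.130 TPM. The gene with an MSP domain, *spe-47*, was at 0.795, 1.64 and 0.562 TPM in N2 EV and at 4.98, 4.84 and 5.75 TPM in TU3401 EV. Its call was lost after quantile normalization (adjusted p = 0.26), as was that of *spe-19* (adjusted p = 0.30). Both genes had entered the main fit through TU3401 EV alone, which fixed their direction there. The small membrane protein gene *spe-29* stayed low everywhere, with 0.066 to 1.09 TPM in TU3401 and 0 to 0.169 TPM in N2, and these ranges overlapped.

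The genes of the sperm surface that act in fertilization summed to 14.7 to 18.6 TPM over 6 genes in TU3401 EV, against 32.5 to 43.1 TPM over the 8 activation genes. The calcium channel gene *spe-41* was the highest of the 6, at 1.19, 0.884 and 0.806 TPM in N2 EV and at 10.5, 9.13 and 10.7 TPM in TU3401 EV (log2 fold change 2.50, SE 0.14, adjusted p = 2.4e-07). Its N2 EV mean was under 1 TPM, so *spe-41* entered that fit through TU3401 EV alone and its direction was fixed. The other 5 averaged under 1 TPM over the 6 control libraries and were not tested, but each was higher in every TU3401 library than in every N2 library. The EGF-repeat gene *spe-9* averaged 1.64 ± 0.41 TPM in TU3401 EV against 0.343 ± 0.027 TPM in N2 EV (SD, n = 3). In the same group, the mean of the DC-STAMP-domain genes *spe-49* and *spe-42* was 1.43 ± 0.38 and 1.09 ± 0.13 TPM, and that of *spe-38*, a membrane protein, was 1.02 ± 0.45 TPM.

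The sperm-supplied protein SPE-11 is needed by the embryo, and its gene had the highest level among the spe genes that were low in N2. It was at 31.6, 31.8 and 43.3 TPM in TU3401 EV and at 42.1, 24.3 and 33.7 TPM with knockdown, whereas in N2 *spe-11* did not exceed 0.376 TPM. Its log2 fold change between the control groups was 4.88 (SE 0.16, adjusted p = 1.1e-08). With an N2 EV mean under 1 TPM, *spe-11* entered that fit through TU3401 EV alone, so its direction was fixed. The gene *spe-48*, for which no role is given here, was also higher in N2. It was at 65.0, 59.9 and 64.9 TPM in N2 EV and at 35.1, 37.2 and 34.4 TPM in TU3401 EV (log2 fold change -0.81, SE 0.08, adjusted p = 6.0e-06).

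The 12 ssp genes summed to 668, 657 and 942 TPM in TU3401 EV and to 7.13, 9.53 and 7.26 TPM in N2 EV. The highest were *ssp-9*, at 180.4, 169.6 and 241 TPM in TU3401 EV, and *ssp-11*, at 180.0, 173 and 239.9 TPM. In N2 these 2 genes did not exceed 0.121 TPM. Their values were close in 5 of the 6 TU3401 libraries and were 184 and 153 TPM in TU3401 *rpia-1* (RNAi) replicate 2. The current annotation gives *ssp-9* as the name of the gene that the files call *ssp-11* as well, so that the level of each is uncertain if the counting divided reads between them. Their sequences were not compared here. The next highest, *ssp-10*, was the highest ssp gene of N2 after *ssp-37*, at 2.38, 2.88 and 2.96 TPM in N2 EV and at 99.8, 102 and 159 TPM in TU3401 EV. In contrast, *ssp-37* overlapped between the strains, with a 2.13-fold higher mean in TU3401 EV than in N2 EV. It was at 3.70, 5.91 and 3.39 TPM in N2 EV and at 7.79, 6.05 and 13.9 TPM in TU3401 EV, and its call (log2 fold change 0.90, SE 0.28, adjusted p = 0.013) was lost without the filter on low values (adjusted p = 0.10) and turned to -0.21 after quantile normalization. The ssp genes *ssp-19*, *ssp-32*, *ssp-33* and *ssp-36* were listed at 0 in all 6 N2 libraries. Of these, *ssp-19* was the highest in TU3401 EV, at 23.0, 23.1 and 29.6 TPM. The other 4 single-exon ssp genes, *ssp-16*, *ssp-31*, *ssp-34* and *ssp-35*, averaged 24.1 to 65.6 TPM over the 6 TU3401 libraries.

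The 4 ssq genes, on chromosome IV, had a median coefficient of variation over the 6 TU3401 libraries of 9.39%, against 20.8% for the 9 nspd genes expressed there. In TU3401 EV, *ssq-4* was at 184, 190.4 and 230.1 TPM, *ssq-2* at 178, 186 and 223 TPM, *ssq-1* at 188, 187 and 212 TPM, and *ssq-3*, the lowest, at 57.2, 56.9 and 67.1 TPM. The highest value of any ssq gene in N2 was that of *ssq-1*, at 1.26 TPM. The log2 fold changes between the control groups were 5.82 to 7.53. Of the 4 genes, *ssq-2*, *ssq-3* and *ssq-4* averaged under 1 TPM in N2 EV. They entered that fit through TU3401 EV alone, so their direction was fixed.

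The nspd family held the highest levels of all 53 genes. In TU3401 EV, *nspd-2* was at 260.2, 269.5 and 373 TPM, *nspd-1* at 223, 215 and 329.8 TPM, and *nspd-7* at 186, 165 and 251 TPM. In N2, the highest value of any nspd gene was that of *nspd-7*, at 1.91 TPM in N2 EV replicate 3, and *nspd-2* was listed at 0 in all 3 N2 EV libraries. Of the 9 nspd genes of at least 1 TPM in TU3401, *nspd-9* was the lowest, with 22.2, 15.9 and 25.02 TPM in TU3401 EV, and the 5 not yet named averaged 69.2 to 153 TPM over the 6 TU3401 libraries. The pseudogene *nspd-11* was at 0.508, 0.667 and 1.88 TPM in TU3401 EV and at 0, 0.549 and 0.000409 TPM in N2 EV. Values of *nspd-1*, *nspd-9* and *nspd-11* lay at 0.00136 TPM or below in some N2 libraries, and single nspd levels are uncertain if reads were divided between members of the family, whose sequences were not compared either.

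Across the table, the control groups of the strains differed in most genes. Each comparison was fitted by limma on log2(TPM + 1) over genes averaging at least 1 TPM in its libraries, and an adjusted p (Benjamini-Hochberg over all genes tested) under 0.05 counted as a call. Of the 53 genes 41 entered the fit of TU3401 EV against N2 EV, and 37 were called higher and 3 lower, while 45.4% of all 13348 genes were called higher and 43.4% lower. The median log2 fold change was 4.62 for the 41 genes and 0.06 for all genes. Of the 41, however, 31 averaged under 1 TPM in N2 EV and entered the fit through TU3401 EV alone, so that they had to differ. Among the 10 that averaged at least 1 TPM in N2 EV, 6 were called higher (*spe-6*, *spe-15*, *ssp-10*, *ssp-37*, *ssq-1* and *nspd-7*), 3 lower and 1, *spe-44*, neither. Because 1 TPM was added before taking logarithms, the fold changes of genes near 0 in N2 understate the change.

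The balance of calls depended on the scaling. After quantile normalization, which moved the median log2 fold change of all genes from 0.06 to -0.25, the share of higher calls among all calls fell from 51.1% to 38.5% (4100 higher and 6546 lower). With a minimum mean of 5 TPM it was 36.1% (2983 and 5291), and 28 spermatogenesis genes were called higher and 3 lower. After quantile normalization, 33 spermatogenesis genes were called higher and 4 lower. Median-of-ratios size factors moved the median of all genes to 0.22 and gave 37 and 3. These counts include genes that entered the fits through TU3401 EV alone, whose direction the filter fixed before any rescaling. The calls of *spe-5*, *spe-39* and *spe-48* as lower and those of *spe-15*, *ssp-10*, *ssq-1* and *nspd-7* as higher, all genes of at least 1 TPM in N2 EV, held under each alternative in which they were tested. For *spe-39* the alternatives gave log2 fold changes of -0.92 to -0.28, for *spe-5* -1.96 to -0.93 and for *spe-48* -0.85 to -0.39.

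**Figure D3:**
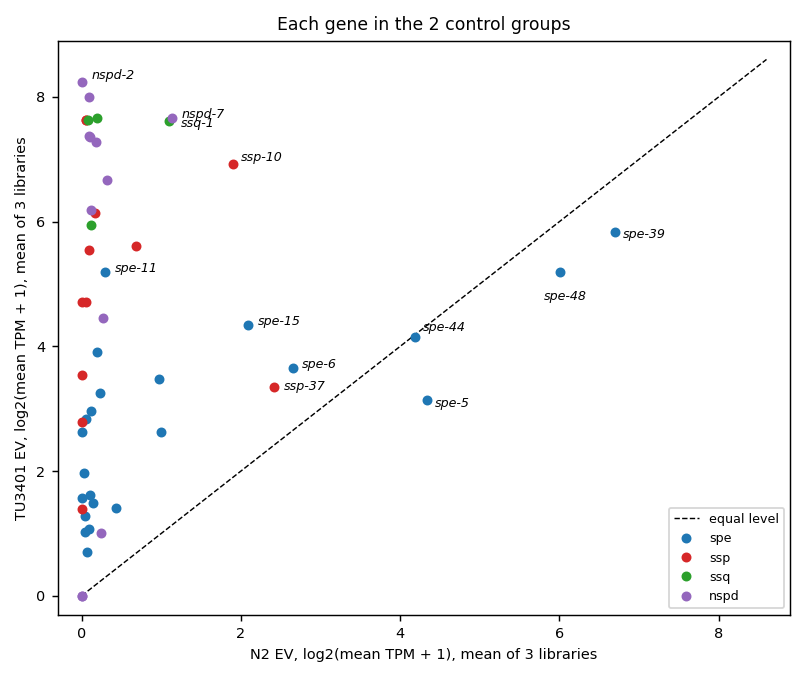
Level of 51 genes in N2 EV (horizontal axis) and TU3401 EV (vertical axis), as log2(mean TPM + 1) of 3 libraries, with 1 point per gene coloured by family and a dashed line at equal levels. Most genes lie at the left edge far above the line, up to *nspd-2* at a mean of 301 TPM in TU3401 EV, whereas *spe-39*, *spe-48* and *spe-5* lie below it and *spe-44* on it.

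Other genes of sperm formation and function, none of them msp genes or named as above, were looked at beside these. Of 22 listed, 21 were found under their names, and the channel gene *trp-3* is present as *spe-41*. The fit of TU3401 EV against N2 EV called 18 higher and 3 lower, while 45.4% of all genes were called higher and 43.4% lower. All 18 averaged under 1 TPM in N2 and entered the fit through TU3401 alone, so their direction was fixed. Those that were higher were led by *msd-4*, an MSP-domain gene, at a mean of 230 ± 55.5 TPM in TU3401 EV and 0.173 ± 0.159 TPM in N2 EV (SD, n = 3). The sperm chromatin gene *spch-3* averaged 164 ± 20.2 and 0.187 ± 0.206 TPM. The 3 lower genes were the zinc transporter gene *zipt-7.1* and the RNA-binding protein genes *cpb-1* and *fog-1*, which act early in sperm formation. Their means were 52.6, 47.2 and 14.997 TPM in TU3401 EV and 101, 79.9 and 30.6 TPM in N2 EV. The sperm-fate gene *fog-3*, in contrast, was among the 18 higher genes, with means of 1.78 TPM in TU3401 EV and 0.833 TPM in N2 EV. The list was chosen with earlier results of these data known.

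Within TU3401, the libraries differed from one another in the level of these genes more than the group means did. Of the 39 genes that averaged under 1 TPM in N2 and at least 1 TPM in TU3401, a division made after the values were seen, 28 were highest in TU3401 EV replicate 3 and the other 11 in TU3401 *rpia-1* (RNAi) replicate 1. The lowest library was TU3401 *rpia-1* (RNAi) replicate 2 for 29 of them. The median over the 39 genes of the log2 ratio to the gene's own mean was 0.33 in TU3401 EV replicate 3 and -0.42 in TU3401 *rpia-1* (RNAi) replicate 2. In the other 4 libraries it was -0.10 and -0.14 (TU3401 EV replicates 1 and 2) and 0.19 and -0.06 (TU3401 *rpia-1* (RNAi) replicates 1 and 3). Thus an EV library lay at the top and a knockdown library at the bottom, and the groups overlapped.

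The order was not the same for every family. All 4 ssq genes, all 9 nspd genes and 11 of the 12 ssp genes were highest in TU3401 EV replicate 3. Of the 22 spe genes that averaged at least 1 TPM, 13 were highest in TU3401 *rpia-1* (RNAi) replicate 1, 6 in TU3401 EV replicate 3 and 3 in TU3401 *rpia-1* (RNAi) replicate 2. Those 3 were *spe-39*, *spe-44* and *spe-48*, which were at 68.7, 20.0 and 40.6 TPM there, the library in which most others were lowest. The oocyte genes also had their highest sum in that library, at 4367 TPM, and their lowest in TU3401 *rpia-1* (RNAi) replicate 1, at 3008 TPM.

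The msp genes followed the same order of libraries as the genes low in N2. Their sum was 6841, 6790 and 9594 TPM in TU3401 EV and 8015, 6094 and 7496 TPM with knockdown. The summed level of the 45 genes under 1 TPM in N2 was 0.355 to 0.370 of the msp sum in each of the 6 libraries. Among the 29 of these genes whose TU3401 mean reached 5 TPM, the coefficient of variation over the 6 libraries had a median of 19.01%. It fell to 8.54% when each value was divided by the msp sum of its library and rose to 28.9% when it was divided by the oocyte sum. Division by the msp sum lowered the coefficient in 26 of the 29, and the 3 exceptions were *ssq-1*, *ssq-3* and *ssp-19*. For the 8 genes of at least 1 TPM in N2 the median was 13.1% before and 19.4% after division by the msp sum. These are descriptions over 6 libraries in which all genes share the library and its scaling, and no test was made.

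**Figure D4:**
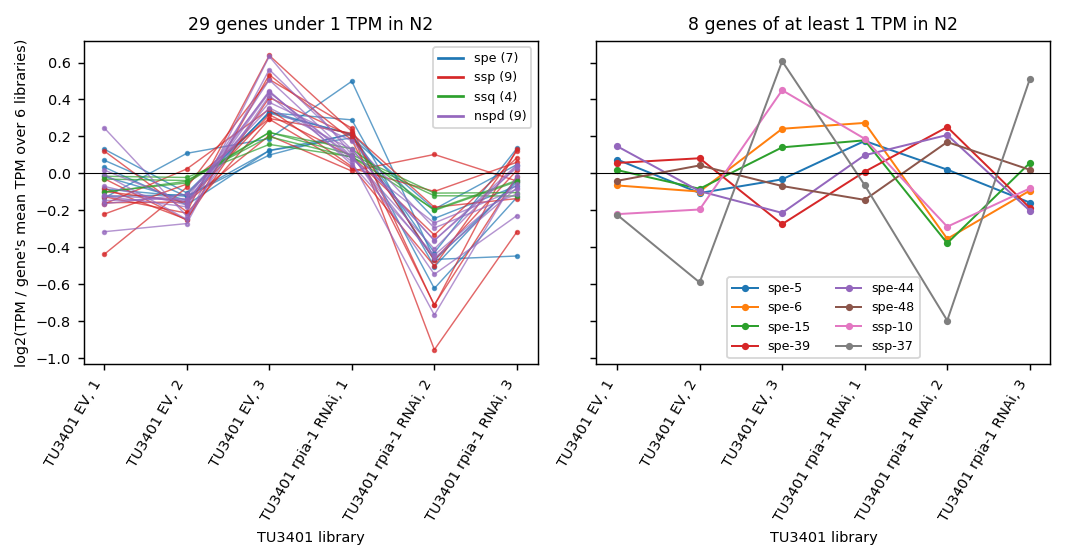
Level of each gene in the 6 TU3401 libraries (horizontal axis) as the log2 ratio to its own mean over those libraries (vertical axis), with 1 line per gene. The 29 genes under 1 TPM in N2 (left, by family) peak in the third EV or the first knockdown library and most of them dip in the second knockdown library, whereas *spe-39*, *spe-44* and *spe-48* among the 8 others (right) are highest there.

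To see whether loss of *rpia-1* changed these genes, each knockdown group was compared with the empty vector of its strain. In N2, where worms were knocked down as adults, no spermatogenesis gene passed. Of the 8 tested, 0 were called (limma, adjusted p under 0.05) and 1 had an unadjusted p under 0.05, while 0.00941% of all 10626 genes were called, which is *rpia-1* itself. Without N2 *rpia-1* (RNAi) replicate 1, 33 genes were called but again 0 of the spermatogenesis genes. The 1 gene was *ssp-10*, at 1.47, 1.51 and 1.39 TPM with knockdown against 2.38, 2.88 and 2.96 TPM in N2 EV. Its log2 fold change was -0.60 (SE 0.18, adjusted p = 1.00, unadjusted p = 0.013 with limma), and it was lower in 3 of 3 knockdown libraries. It was the only one of the 8 whose groups did not overlap, a pattern that 3.15% of all genes showed in that direction and 1.96% in the other, where none of the 8 did. Over the alternatives in which it was tested the log2 fold change of *ssp-10* lay between -0.86 and -0.26, and its adjusted p was 0.36 or higher.

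The other N2 values stayed within the spread of the replicates. For the 6 spe genes tested, the log2 fold changes were -0.11 to 0.09 and every 95% interval lay within -0.47 and 0.49. The narrowest was that of *spe-39*, with levels of 90.8, 107 and 107 TPM with knockdown and a log2 fold change of -0.02 (95% interval -0.21 to 0.17). The least certain was *ssp-37*, at 9.62, 3.14 and 6.22 TPM with knockdown (0.38, interval -0.49 to 1.26), where the high value came from N2 *rpia-1* (RNAi) replicate 1. The median of the 8 log2 fold changes was -0.06, against -0.00 for all genes, and it was 0.04 without N2 *rpia-1* (RNAi) replicate 1. The sum over all 53 genes was 198, 227 and 229 TPM with knockdown, and the lowest of these was again N2 *rpia-1* (RNAi) replicate 1.

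In TU3401, where worms were fed *rpia-1* bacteria from the embryo on, no spermatogenesis gene passed either. Of 47 tested, 0 were called and 0 had an unadjusted p under 0.05 (limma), and 0% of all 13921 genes were called, *rpia-1* included (log2 fold change -0.26, adjusted p = 1.00). No gene of the 47 had groups that did not overlap, a pattern that 2.03% of all genes showed with lower and 1.36% with higher knockdown levels. The 53 genes summed to 3215, 2444 and 2923 TPM with knockdown, within the 2733 to 3783 TPM of TU3401 EV except for TU3401 *rpia-1* (RNAi) replicate 2.

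The log2 fold changes leaned low, with 35 of the 47 below 0 and a median of -0.08 against 0.00 for all genes. All 9 nspd genes (median -0.14) and all 4 ssq genes (-0.09 to -0.06) were below 0, as were 9 of 12 ssp genes and 13 of 22 spe genes. Since these genes rose and fell together among the libraries, this count is not that of independent genes. The lean rested on single libraries. Without TU3401 EV replicate 3 the median was 0.04 and 29 of 47 were above 0, and without TU3401 *rpia-1* (RNAi) replicate 2 it was 0.02 with 29 of 49 above 0. TU3401 EV replicate 3 was also the library with the lowest factor between TPM and FPKM, at 1.21 against 1.70 to 1.77 in the other TU3401 libraries. On the FPKM scale the median was -0.24, with that of all genes at -0.15.

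The gene with the lowest p was *ssp-36*, at 5.51, 4.38 and 7.88 TPM in TU3401 EV and 5.93, 2.61 and 4.06 TPM with knockdown (log2 fold change -0.43, 95% interval -1.07 to 0.21). In the other direction it was *ssp-32*, at 0.832, 2.02 and 2.04 TPM and at 3.88, 1.52 and 2.09 TPM (0.39, interval -0.30 to 1.09). In both genes the groups overlapped. The 95% intervals of the 4 ssq genes all lay between -0.36 and 0.22, and that of *spe-48* ran from -0.24 to 0.31. For *nspd-2*, the highest gene, the levels with knockdown were 319, 227 and 301 TPM (-0.09, interval -0.48 to 0.30). Of the 47 intervals 44 lay within -1 and 1, that is, within a 2-fold change of TPM + 1 in either direction.

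**Figure D5:**
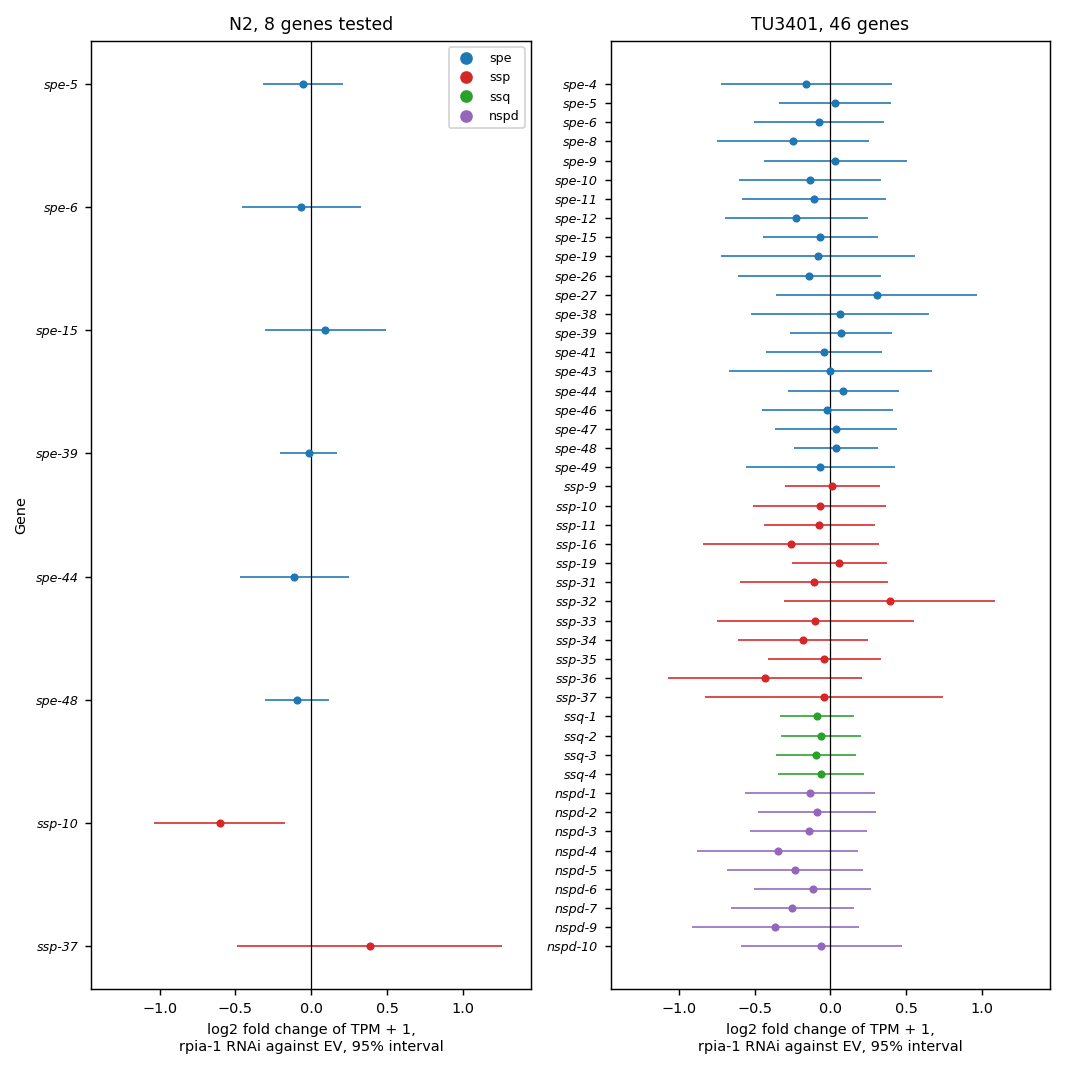
Log2 fold change of TPM + 1 with *rpia-1* RNAi against empty vector (horizontal axis) for spermatogenesis genes tested in N2 (left, 8 genes) and TU3401 (right, 46 of the 47), with points coloured by family and bars for the 95% interval from limma. All 46 intervals plotted for TU3401 and 7 of 8 in N2 include 0, and that of *ssp-10* in N2, from -1.04 to -0.17, does not.

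Whether the knockdown change differed between the strains was examined by fitting all 12 libraries at once. Of 43 spermatogenesis genes tested, 0 were called and 0 had an unadjusted p under 0.05 (limma), while 0.00747% of all 13383 genes were called, again *rpia-1*. The lowest p belonged to *ssp-10*, whose change was higher by 0.53 on the log2 scale in TU3401 than in N2 (SE 0.25, adjusted p = 1.00). Of the 21 other sperm genes found there were 0 calls (limma) among the 3 tested in N2 and 0 among the 21 tested in TU3401. In TU3401, 17 of the 21 were below 0, while 51.3% of all genes tested were above 0. Genes that rise and fall together are not independent counts, and whether this lean rested on single libraries was not tested.

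The genes share features that their names do not give. None of the 51 protein-coding ones is on the X chromosome, which holds 13.6% of the 19901 protein-coding genes, while chromosome IV holds 41.2% of them against 16.5% of all and chromosome I 35.3% against 14.4%. All 4 ssq genes are on chromosome IV. The ssp genes are 107 to 112 codons long and 9 of the 12 have 1 exon, the 10 coding nspd genes are 70 to 73 codons long and all have 1 exon, and no spe or ssq gene does. In all, 37.3% of the 51 have 1 exon against 3.497% of all protein-coding genes. The 3 ssp genes of 2 exons, *ssp-32*, *ssp-36* and *ssp-37*, were also the 3 lowest ssp genes in TU3401 by the mean over 6 libraries, at 2.06, 5.06 and 9.11 TPM. These counts describe the annotation and were not tested.

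Some of the highest genes lie in the same stretches of a chromosome. On chromosome IV of WBcel235, *ssp-9* (4994371 to 4994700), *ssq-2* (4996142 to 4997559), *ssp-11* (4999485 to 4999814) and *ssq-4* (5016479 to 5017766) lie in this order, and all 4 averaged 192 to 197 TPM in TU3401. Farther along, *nspd-2* (9844060 to 9844272), *ssp-10* (9850702 to 9851031) and *ssq-1* (9852550 to 9853609) lie in this order, with means of 292, 116 and 190.03 TPM. The closest pair, *ssp-9* and *ssq-2*, is 1441 bp apart and *ssp-11* and *ssq-4* are 16664 bp apart, and genes of other names between them were not looked for. In contrast, *ssp-32* lies 41778 bp from *ssq-1* and averaged 2.06 TPM in TU3401.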

How the data were processed

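The authors deposited 1 table of FPKM values and 1 of values that they label TPM for 12 libraries of whole worms. The submitters' processing notes name HISAT2 2.2.1 and featureCounts 1.6.2, with Trimmomatic 0.36, FastQC 0.11.9 and MultiQC 1.12, and the genome build and the step of each tool are not given in the sources used here. The deposited TPM were treated as a linear signal. They equal the FPKM times 1 factor per library (1.21 to 1.93) and sum to 1025899 to 1036143 per library. Values above 0 go down to 1e-06, so they are not steps of whole reads, and the depth in reads is unknown.

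Comparisons were fitted by limma 3.58.1 in R 4.3.3 (mean-variance trend, log2(TPM + 1), genes of at least 1 TPM on average, Benjamini-Hochberg over all genes), which was tested on simulated data. Columns were matched to samples by name. The samples are labelled replicates, and the p-values measure the spread between them. Genes were named if they had a role in a hand-written table, averaged 1 TPM in N2, were among the 3 highest of their family in TU3401, had 1 of the 3 lowest p-values in a direction, or were at 0 throughout. The single values of 2 genes are not reported here. Genes outside this rule enter counts and ranges, but for *nspd-11*, *ssp-16*, *ssp-19*, *ssp-31*, *ssp-33*, *ssp-34*, *ssp-35* and *ssq-3*, whose naming followed a look at their values. The genes and lists were chosen with earlier results of these data known. Codon numbers, exons and positions come from Ensembl release 115 (WBcel235). Alternatives were FPKM, other pseudocounts, filters, scalings and fits, and leaving out each library.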

Additional observations from a re-analysis of the deposited data

How the results depend on the processing

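Of the comparisons named above, the counts of spermatogenesis genes past the threshold stayed at 0 in N2, in TU3401 and for the difference between them under every alternative run, and for TU3401 EV against N2 EV they lay between 31 (at least 5 TPM on average) and 47 (no filter), against 40 as reported. The summed level with knockdown, at a log2 ratio of -0.05 in N2, lay between -0.090 and 0.014 when single libraries were left out and turned to 0.014 without N2 *rpia-1* (RNAi) replicate 1. In TU3401 it was -0.11, lay between -0.198 and 0.042, and turned to 0.042 without TU3401 EV replicate 3. On the FPKM scale the ratios were -0.18 in N2 and -0.28 in TU3401. Among single genes, *ssp-37* turned to -0.21 in TU3401 EV against N2 EV after quantile normalization. The deviations of EV and knockdown libraries of the same replicate number correlated at -0.44, 0.04 and -0.41 in N2. The deposited names number EV and knockdown libraries alike within each strain, and whether the N2 libraries are paired was not settled. In TU3401 the deviations correlated at 0.05, 0.44 and 0.42. There replicates 2 and 3 each correlated best with their own number, and whether TU3401 libraries are paired was not settled. These correlations run across genes, which are not independent. With the replicate block the calls were 0, 0, 40 and 0, and the log2 ratios of the sums were again -0.05 and -0.11. TU3401 EV replicate 1 correlated best with knockdown replicate 2 (0.23). Counts over all genes moved by over 1.5 times in several settings. In N2 the count went from 1 to 33 without N2 *rpia-1* (RNAi) replicate 1, and to 2 without a filter or without N2 EV replicate 3. In TU3401 it was 1 (0 as reported) without TU3401 EV replicate 3 or without TU3401 *rpia-1* (RNAi) replicate 3. For the difference it was 2 without TU3401 *rpia-1* (RNAi) replicate 3 and 0 with FPKM (1 as reported). Without a filter, 2 genes rose and 4 fell in TU3401 (0 as reported), and the difference between the strains gave 3 higher and 7 lower (1 as reported). The causes of these shifts were not tested. With 3 libraries a group and no read counts, small changes of genes under 1 TPM cannot be seen.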

Other observations

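The current gene names add 4 spe genes that the table lists under sequence names, so they were not among the 53. The first, *spe-18*, needed to bring the major sperm protein to the fibrous body, was at 2.63, 2.58 and 1.63 TPM in N2 EV and at 52.8, 50.1 and 69.5 TPM in TU3401 EV, above *spe-11* in each of these libraries. The knockdown libraries held 1.79, 1.39 and 2.29 TPM in N2, and those of TU3401 held 64.9, 39.1 and 53.1 TPM, with the same TU3401 libraries at the top and the bottom as for *spe-11*. The gene *spe-54* was at 0.117, 0.0995 and 0 TPM in N2 EV and at 11.7, 13.3 and 20.3 TPM in TU3401 EV. The fertilization genes *spe-51* and *spe-36*, which encode secreted proteins, averaged 1.01 ± 0.09 and 1.04 ± 0.34 TPM in TU3401 EV and 0.214 ± 0.205 and 0.557 ± 0.101 TPM in N2 EV (SD, n = 3). For *spe-36* the strains overlapped.

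The serine protease gene *try-5*, whose product is known from male seminal fluid, did not follow the sperm genes. It was at 0.0852 to 0.356 TPM in the 6 TU3401 libraries and at 0.165 to 0.641 TPM in 5 N2 libraries, and it reached 2.06 TPM in N2 *rpia-1* (RNAi) replicate 1.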
